A study of Arabidopsis thaliana with 6 samples.

Results

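The gene SPE2, which encodes arginine decarboxylase 2, and the other enzymes of polyamine synthesis were followed in Arabidopsis thaliana seeds. The members are the SPE2 probe set and every probe set whose title in the authors' deposited table names an arginine decarboxylase, a spermidine or spermine synthase, or an adenosylmethionine decarboxylase. This gave 11 of 22746 probe sets other than controls: 2 for arginine decarboxylases, 5 for spermidine or spermine synthases and 4 for adenosylmethionine decarboxylases. SPE2 was taken up because of its measured decrease between the 2 groups, which had rank 17 among all probe sets, so that decrease is described here and not tested. The other 10 entered by title alone.

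One group was wild type of the accession Columbia-0 (Col-0), and the other carried the anac089-2 mutation in that background. ANAC089 is a membrane-anchored transcription factor of the plant NAC family. All seeds of both groups were stratified in water, kept dark at 4 °C for 3 days. They were then moved to light at 22 °C with 5 µM abscisic acid (ABA), which represses germination, and sampled after 3 h. There were 3 biological replicates per group, with 1 Affymetrix ATH1 array for each. No group without ABA was measured, so a response to ABA cannot be told apart from a difference present without it. The labels do not say what kind of lesion anac089-2 is. The tables used link none of the probe sets to ANAC089 by name, so the mutation was not checked through its own transcript.

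Polyamines are small, positively charged molecules that bind nucleic acids and membranes and accumulate in plants under drought, salt and cold. In Arabidopsis, which has no ornithine decarboxylase gene, putrescine is made from arginine: arginine decarboxylase removes the carboxyl group to give agmatine, and further steps convert agmatine to putrescine. Spermidine synthase then adds an aminopropyl group to putrescine, and spermine synthase adds another to spermidine. The aminopropyl groups come from decarboxylated S-adenosylmethionine, the product of adenosylmethionine decarboxylase. S-adenosylmethionine is also the precursor of ethylene.

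Levels are the deposited log2 values of robust multi-array averaging (RMA), where 1 unit is a doubling, and every difference is anac089-2 minus wild type. Array medians ran from 3.80 on wild-type replicate 3 to 4.01, and the mean correlation of an array with the others of its group was also lowest for wild-type replicate 3 (0.982). Among the 11223 probe sets with a mean level of 4 or more, that array was the lowest of the wild-type arrays for 67.7%. The seed label was checked on markers, of which 3 of 11 listed for seed were matched to a probe set. EM1, EM6 and CRA1, which encode late embryogenesis and storage proteins, had levels of 11.50 to 14.06 on all arrays. EM1 itself fell by 0.79 in anac089-2 (SE 0.141, limma adjusted p = 0.0262), with the groups 0.50 apart, while EM6 (0.05) and CRA1 (0.01) did not pass. Its part in the differences of the polyamine genes was not tested. The leaf, pollen and root lists held 5 markers each. Those matched to a probe set were 3 leaf (LHCB3, OEC33 and LHCB5), 3 pollen (AGP6, AGP11 and ANX1) and 1 root marker. They had 2.83 to 4.25, near or below the array medians. Since whole seeds were extracted, fewer cells of a type and less RNA per cell cannot be told apart.

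The first enzyme of the pathway, SPE2 (AT4G34710, named ADC2 in RefSeq), was about 4 times lower in anac089-2. Its level was 9.60, 9.85 and 9.80 in wild-type replicates 1 to 3, and 7.36, 8.33 and 7.72 in anac089-2 replicates 1 to 3. The groups lay 1.27 apart at their nearest arrays, and the wild-type arrays stood close together while the mutant arrays spread over almost a whole unit, with replicate 2 highest. The means were 9.75 ± 0.132 and 7.80 ± 0.490 (SD, n = 3 each), a difference of -1.95 ± 0.234 (SE) with a 95% interval of -2.50 to -1.40. On the linear scale wild type was 3.85-fold higher, with an interval of 2.63 to 5.64. Both intervals take no account of the choice of SPE2 by this same decrease, so they describe spread and are no test. With 1 array left out at a time the difference ran from -2.21 to -1.72.

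SPE1 (AT2G16500, ADC1 in RefSeq), the other arginine decarboxylase gene, had a smaller difference of the same sign. Its level was 7.24, 7.75 and 7.27 in wild type, and 6.65, 6.73 and 6.83 in anac089-2. All mutant arrays lay below all wild-type arrays, by 0.41 at the nearest. The difference was -0.68 ± 0.154 (SE, n = 3 per group), with a 95% interval of -1.05 to -0.32, and it missed the threshold of 0.05 (limma adjusted p = 0.0534, adjusted over all 22746 probe sets). It passed without wild-type replicate 3 (limma adjusted p = 0.0371) and under each of 3 other scalings of the arrays (0.0149 to 0.0197). It missed without any other single array (limma adjusted p = 0.0685 to 0.227), with the replicate number as a block (0.0822) and with no moderation (0.217). Within an array, the log2 ratio of SPE2 to SPE1 averaged 2.33 ± 0.217 in wild type and 1.07 ± 0.471 in anac089-2 (SD, n = 3). The ratio was lower on every mutant array than on any wild-type array, by 1.26 on average, so the values of SPE2 and SPE1 did not differ between the groups by the same amount. This ratio uses the contrast that chose SPE2 and was not tested.

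**Figure D1:**
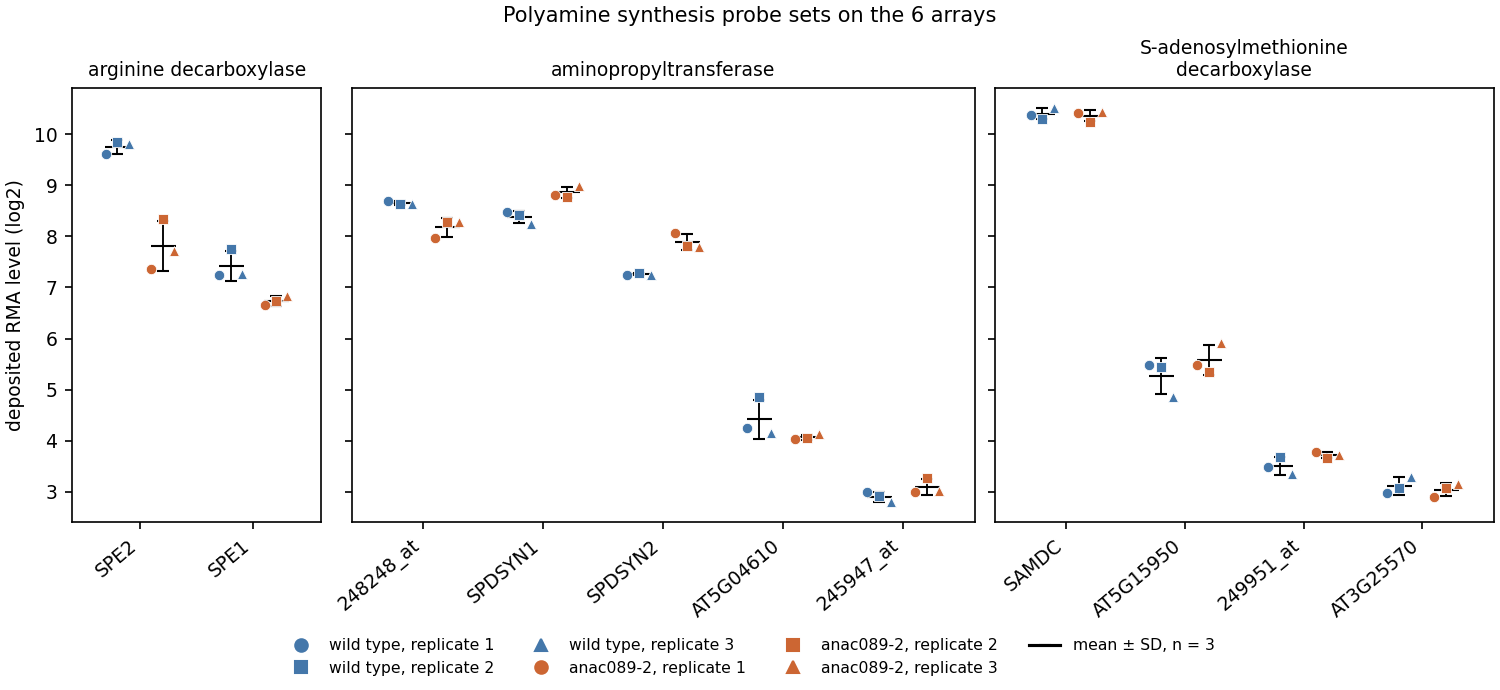
Deposited RMA level (log2, vertical axis) of each polyamine synthesis probe set on each array; symbols mark replicates, and black bars are the mean ± SD of 3 arrays. Levels can be set against each other within a probe set, not between probe sets. SPE2 has the widest gap between the groups, 1.27 at the nearest arrays, while the groups of SAMDC overlap.

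Of the 10 members other than SPE2, 1 rose in anac089-2, 0 fell and 9 did not pass (limma adjusted p under 0.05). Over all probe sets 4.92% passed, 2.94% higher and 1.98% lower. At mean levels of 4 or more the share was 9.71%, and at lower levels it was 0.26%. A call for 1 of 10 is close to the share at mean levels of 4 or more. The level ranges differ, since 3 of the 10 had mean levels under the lowest array median, 3.80. The groups did not overlap for 5 of the 10, with 2 higher and 3 lower, against 24.0% over all probe sets, of which 15.8% were higher and 8.23% lower. These 5 had mean levels of 4 or more, where the groups did not overlap for 4399 of 11223 probe sets. At an unadjusted limma p under 0.05 there were 4 of the 10. Over all probe sets these were 3913 of 11223 at mean levels of 4 or more and 477 of 11523 at lower levels. The median difference of the 10 was 0.08, and that over all probe sets was 0.04.

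The member that rose was SPDSYN2 (AT1G70310), a spermidine synthase gene. Its level was 7.25, 7.29 and 7.25 in wild type, and 8.06, 7.81 and 7.79 in anac089-2. The wild-type arrays differed by only 0.04, and every mutant array lay at least 0.50 above them. The difference was 0.62 ± 0.107 (SE), with a 95% interval of 0.37 to 0.88, or 1.54-fold (limma adjusted p = 0.0241). With 1 array left out at a time it ran from 0.54 to 0.67, and it passed the threshold in 1 of these 6 fits, that without wild-type replicate 3 (limma adjusted p = 0.0258; up to 0.103 in the others).

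SPDSYN1 (AT1G23820), the paralogous spermidine synthase gene, had 8.47, 8.42 and 8.24 in wild type and 8.81, 8.77 and 8.99 in anac089-2. The mutant arrays were again all above the wild-type arrays, here by 0.30 at the nearest. The difference of 0.48 ± 0.112 (SE; 95% interval 0.22 to 0.74) missed the threshold (limma adjusted p = 0.0572). It passed after a second quantile normalization (limma adjusted p = 0.035) and with cyclic loess (0.0448). It missed with arrays centred on their medians (0.0674) and without any single array (0.06 to 0.217). The log2 ratio of SPDSYN1 to SPDSYN2 averaged 1.11 ± 0.116 in wild type and 0.97 ± 0.225 in anac089-2 (SD, n = 3), and its values overlapped between the groups.

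A further probe set of this enzyme class had the opposite sign. Probe set 248248_at is titled a putative spermidine synthase or putrescine aminopropyltransferase, and its gene is named in none of the tables used. Its level was 8.70, 8.64 and 8.63 in wild type, and 7.96, 8.28 and 8.28 in anac089-2. Here every mutant array was below every wild-type array, by 0.35 at the nearest. The difference was -0.48 ± 0.117 (SE; 95% interval -0.76 to -0.21), and it missed the threshold (limma adjusted p = 0.0646). It passed under each of the 3 other scalings (0.0331 to 0.0473). It missed without any single array (limma adjusted p = 0.0625 to 0.206), with the replicate number as a block (0.135) and with no moderation (0.187). The log2 ratio of SPDSYN2 to this probe set was -1.45, -1.35 and -1.38 in wild type and 0.10, -0.47 and -0.49 in anac089-2. Differences of both signs thus stood side by side in this class: the ratio was 1.11 higher in anac089-2 on average, a description of a pair picked after its values were seen.

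The other 2 probe sets of this class did not pass the threshold either. AT5G04610, titled spermidine synthase-related, had 4.16 to 4.86 in wild type and 4.03 to 4.13 in anac089-2, just apart by 0.03, with a difference of -0.35 ± 0.186 (SE, limma adjusted p = 0.365). Probe set 245947_at, titled a spermine/spermidine synthase family protein, stayed between 2.80 and 3.27 on all arrays (0.19 ± 0.116, SE, limma adjusted p = 0.447). The latter lay below every array median, a range in which few probe sets passed.

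Of the 4 adenosylmethionine decarboxylase members, 0 passed the threshold in limma and 0 had an unadjusted p under 0.05. SAMDC (AT3G02470) had 10.37, 10.30 and 10.51 in wild type and 10.41, 10.23 and 10.44 in anac089-2. The groups lay on top of each other. The difference was -0.03 ± 0.108 (SE), and its 95% interval reached from -0.29 to 0.22. AT5G15950 had 4.86 to 5.48 in wild type and 5.35 to 5.91 in anac089-2, with a wider interval of -0.18 to 0.82 and overlapping groups. Probe set 249951_at (3.35 to 3.78 over all arrays, difference 0.22 ± 0.115, SE) and AT3G25570 (2.91 to 3.30, -0.07 ± 0.123, SE) were below the array medians. Limma adjusted p-values of the 4 were 0.369 to 0.902.

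**Figure D2:**
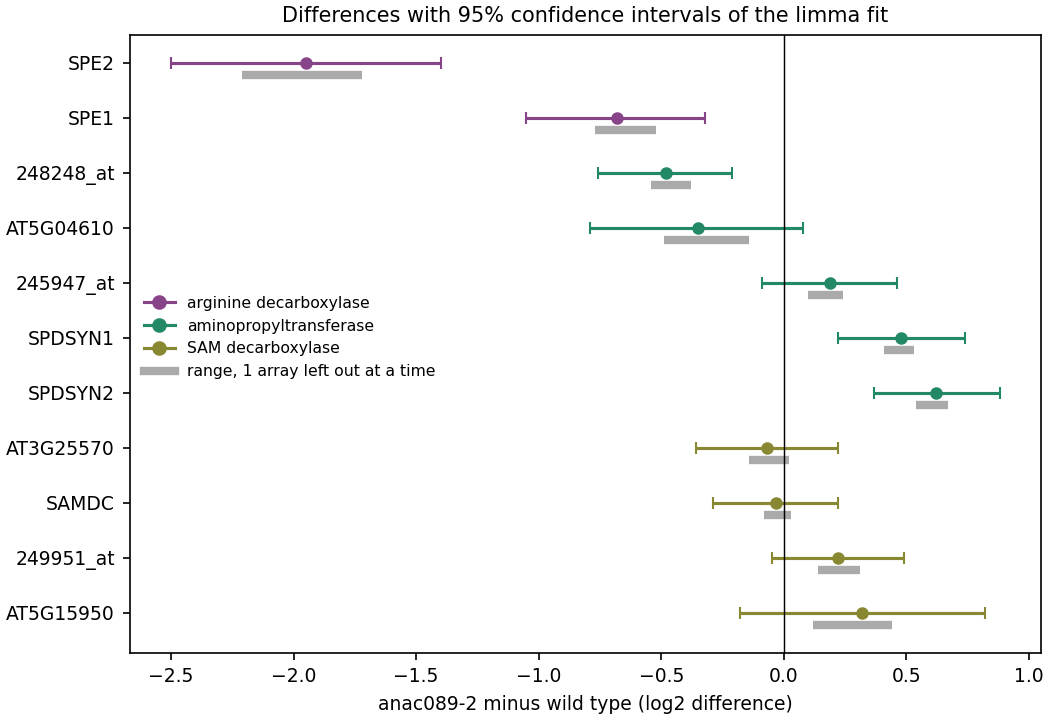
Difference of anac089-2 minus wild type (log2, horizontal axis) for each member, with the 95% interval of the limma fit as whiskers and the range over fits with 1 array left out as grey bars. Both arginine decarboxylase genes lie left of 0, with SPE2 at -1.95 and SPE1 at -0.68, while SPDSYN1 and SPDSYN2 lie right of 0 and the interval of SAMDC spans it. The whiskers of SPE2 take no account of its choice by this same decrease.

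The reactions around the pathway were followed through 68 probe sets in 9 lists chosen by title words and gene names. Of these 8 rose, 4 fell and 56 did not pass, which is 17.6% against 4.92% over all probe sets and 9.71% at mean levels of 4 or more. The lists were chosen with earlier results of these data known, so this share is a description and no test. A level of 4 or more was reached by 38 of the 68. The count of 12 was 3, 2 and 14 without wild-type replicate 1, 2 or 3, and 0, 5 and 0 without anac089-2 replicate 1, 2 or 3.

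Every probe set matched for the supply of both substrates, arginine and S-adenosylmethionine, had a positive difference. The lists named 12 loci for arginine synthesis, with 8 probe sets matched, and 4 for S-adenosylmethionine synthetase, with 4 matched. These probe sets all had mean levels of 4 or more, where 7309 of 11223 probe sets were positive and the median difference was 0.14. Of 8 probe sets for arginine synthesis, 3 rose, 0 fell and 5 did not pass, with positive values for all 8 and a median of 0.47, which was 0.30 after cyclic loess. The largest were AT5G10920, an argininosuccinate lyase that performs the last step to arginine (0.79 ± 0.171, SE, limma adjusted p = 0.0464), and the probe sets titled carbamoyl-phosphate synthase small subunit (258243_at, 0.71 ± 0.136, SE) and carbamoyl-phosphate synthase family (256002_at, 0.61 ± 0.108, SE). Wild-type replicate 3 was the lowest wild-type array for 7 of these 8. Without it the median was 0.26, 3 rose and all 8 stayed positive. Without any other single array 0 of the 8 passed, and with the replicate block 1 did. The part of that array in the list's median was not otherwise tested.

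Of 4 probe sets for S-adenosylmethionine synthetase, 2 rose, 0 fell and 2 did not pass, with a median of 0.48. This enzyme makes S-adenosylmethionine, which becomes the donor of the aminopropyl groups only after its decarboxylation. SAM2 (255552_at) had 8.79, 8.85 and 8.92 in wild type and 9.49, 9.41 and 9.46 in anac089-2, a difference of 0.60 ± 0.0913 (SE, limma adjusted p = 0.0179). A synthetase probe set titled putative (258415_at) went from a mean of 10.02 ± 0.150 to 10.69 ± 0.0462 (SD, n = 3, limma adjusted p = 0.0209). Both passed without wild-type replicate 3. Neither passed without wild-type replicate 2 (limma adjusted p = 0.0566 and 0.0683), without any 1 of the mutant arrays (0.0583 to 0.115) or with the replicate block (0.0637 and 0.054), and SAM2 also missed without wild-type replicate 1 (0.0519).

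The list of 23 probe sets titled amine oxidase includes enzymes that break polyamines down. It held 1 that rose, 2 that fell and 20 that did not pass, with a median of -0.11. By title, 1 was a polyamine oxidase and 11 were copper amine oxidases. Another 7 had only general amine oxidase titles, with a median of -0.04. A probe set titled a putative polyamine oxidase (250246_at), an enzyme class that oxidises spermidine and spermine, had 6.49, 6.63 and 6.26 in wild type and 5.16, 5.80 and 5.30 in anac089-2. It fell by 1.04 (SE 0.186, limma adjusted p = 0.0264), with the groups 0.46 apart, and the call was lost under 5 of 16 alternatives, the fits without wild-type replicate 1 or 2 or anac089-2 replicate 1 or 3 among them (limma adjusted p = 0.0707 to 0.130). A probe set shared by the copper amine oxidase genes AT4G12290 and AT4G12280 (254833_s_at) fell by 0.67 (SE 0.106), from 9.25 ± 0.0208 to 8.58 ± 0.147 (SD, n = 3, limma adjusted p = 0.0203), a call lost without those same arrays (0.0546 to 0.110) and with the replicate block (0.0593). AT5G49555, titled amine oxidase-related, rose by 0.67 (SE 0.146, limma adjusted p = 0.0467), and this call was lost under 10 of 16 alternatives, including the fits without each of the 6 arrays (0.0581 to 0.184). Neither its title nor that of 254833_s_at names a polyamine as substrate. CuAO1, a copper amine oxidase gene, had the largest positive value of the list (0.78, SE 0.203), with the groups 0.38 apart. It missed the threshold (limma adjusted p = 0.0782). Of the 23 differences, 7 were positive and 16 negative. Mean levels were under 4 for 13 of the 23. Over all probe sets, 5666 of 11523 were positive at such levels, and 7309 of 11223 at mean levels of 4 or more. The list also holds 4 titles with a SWIRM domain, a domain known from chromatin proteins, and 0 of these passed in limma, with 0 at an unadjusted p under 0.05.

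Betaine-aldehyde dehydrogenases, which in plants also oxidise the aminoaldehydes left by polyamine breakdown, had 3 probe sets, of which 1 rose. ALDH10A8 had 7.06, 7.17 and 6.65 in wild type and 7.96, 7.71 and 8.01 in anac089-2, higher on every mutant array (0.93 ± 0.161, SE, limma adjusted p = 0.0241). This call was lost under 7 of 16 alternatives: with no moderation, with the replicate block (0.0611) and without each array other than wild-type replicate 3 (0.0537 to 0.130). Arginase, which draws arginine away to ornithine, was measured by 1 probe set shared by 2 genes (255065_s_at) and did not pass (0.14 ± 0.224, SE). Its value turned to -0.12 without wild-type replicate 3.

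**Figure D3:**
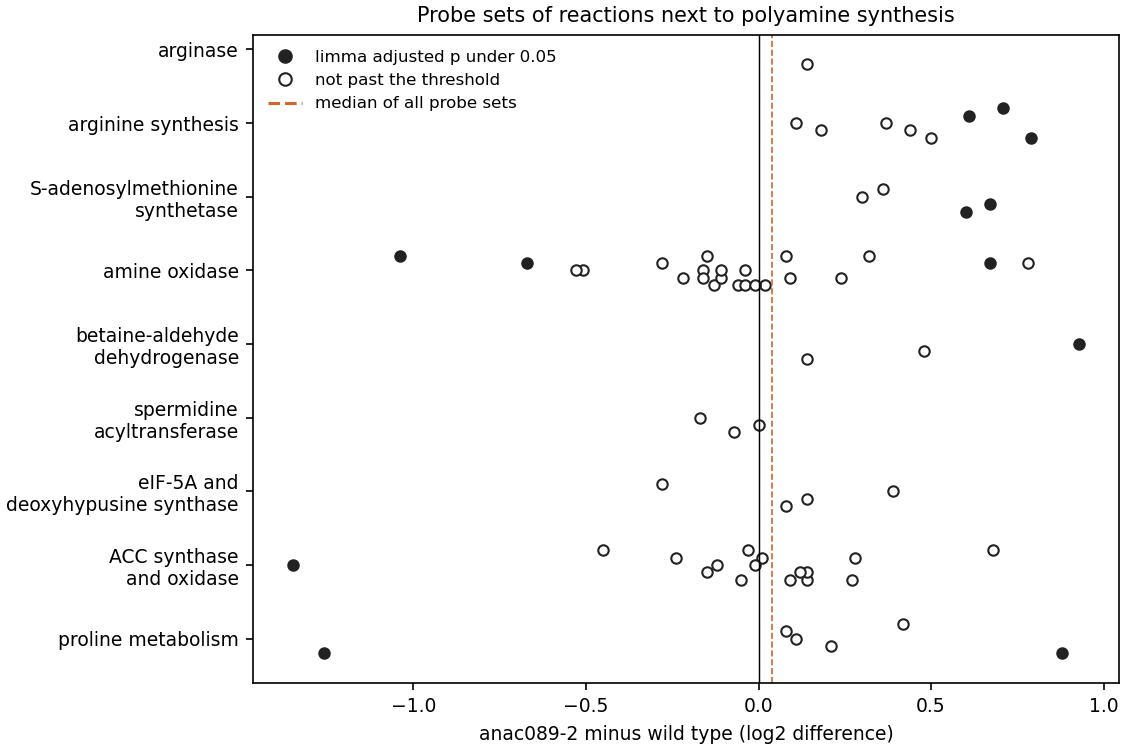
Difference of anac089-2 minus wild type (log2, horizontal axis) for every probe set of the lists around polyamine synthesis, 1 point each; filled points passed a limma adjusted p of 0.05, and the dashed line is the median of all probe sets, 0.04. All 8 arginine synthesis points and all 4 S-adenosylmethionine synthetase points lie right of 0, and the amine oxidase points lie on both sides.

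The competing use of S-adenosylmethionine, ethylene synthesis through 1-aminocyclopropane-1-carboxylate (ACC), gave 1 call among 16 probe sets (6.25%), and 11 of the 16 had mean levels under 4. ACS6, an ACC synthase gene, had 7.70, 7.07 and 7.02 in wild type and 5.51, 6.48 and 5.76 in anac089-2. It fell by 1.35 (SE 0.283, limma adjusted p = 0.0430), and as with SPE2 the mutant replicate 2 was the highest of the mutant arrays. The call was lost without wild-type replicate 1 or 2 or anac089-2 replicate 1 or 3 (limma adjusted p = 0.0894 to 0.186) and with the replicate block (0.0783). Of 6 probe sets of proline metabolism, which shares glutamate and ornithine with arginine, 1 rose and 1 fell. ERD5, the mitochondrial proline dehydrogenase that breaks proline down, fell by 1.26 (SE 0.146, limma adjusted p = 0.0117), with 10.01 to 10.43 in wild type and 8.83 to 9.15 in anac089-2. Pyrroline-5-carboxylate reductase (246594_at), the last enzyme of proline synthesis, rose by 0.88 (SE 0.117, limma adjusted p = 0.0133). Both calls were lost without anac089-2 replicate 1 (0.0712 for each) or 3 (0.0824 for each).

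Lists downstream of spermidine gave no call. The 4 probe sets for the translation factor eIF-5A, which carries a hypusine residue made from spermidine, and for deoxyhypusine synthase had 0 past the threshold in limma and 1 at an unadjusted p under 0.05. Probe set 261270_at, titled eIF-5A, had the largest value (0.39 ± 0.0975, SE, limma adjusted p = 0.0712). The 3 measured spermidine acyltransferase genes, SHT, SDT and AT2G25150, had mean levels under 4 and 0 calls in limma, with 0 at an unadjusted p under 0.05 and the largest value at SHT (-0.17 ± 0.162, SE, limma adjusted p = 0.642). At such levels 0.26% of all probe sets passed. Their list, for conjugation and transport, named 9 loci and only these 3 were matched, so polyamine transport was not analysed. No probe set was paired with the enzymes that turn agmatine into putrescine, so those steps were not analysed here.

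Among 14364 probe sets of 1 named gene, the 6 whose values over the 6 arrays lay nearest to those of SPE2, after each was centred on its own mean, were AT4G33666, AGP1, AT2G41730, AOX1A, GST6 and ACA13. Their root mean square differences from SPE2 were 0.122 to 0.253 log2 units, and their Pearson correlations with it over 6 arrays were 0.984 to 0.993. The points share the 2 groups, so the correlations mostly describe the difference between groups, and no test was made. AGP1, an arabinogalactan protein gene, had 9.85, 9.61 and 9.70 in wild type and 7.44, 8.20 and 7.64 in anac089-2. In all 6 genes, as in SPE2, anac089-2 replicate 2 was the highest mutant array and replicate 1 the lowest. The 6 were picked for nearness to these same SPE2 values, so the shared order follows in part from the choice. The probes of AT2G41730 are marked by their suffix as able to bind related transcripts too. SPE1 stood further off, at 0.699 with a correlation of 0.888. SPDSYN2 and SPDSYN1 had correlations of -0.975 and -0.921.

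**Figure D4:**
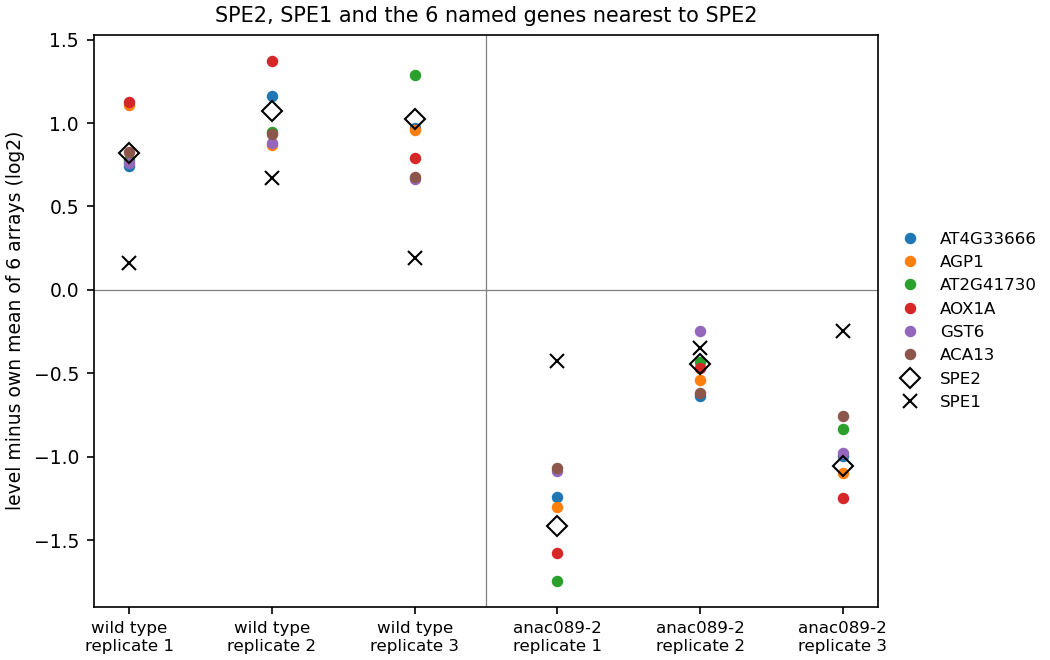
Level on each array minus the probe set's own mean over the 6 arrays (log2, vertical axis) for SPE2, SPE1 and the 6 named genes nearest to SPE2. In the mutant the points of SPE2 and these 6 genes are highest on replicate 2 and lowest on replicate 1, while SPE1 stays closer to 0. The 6 genes were picked for nearness to the plotted SPE2 values.

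The place of anac089-2 replicate 2 was looked at among probe sets past the threshold. The share among those that did not pass was not computed. Replicate 2 was the mutant array nearest to the wild-type mean for 714 of the 1120 probe sets past the threshold (63.8%) and for 8 of the 12 called in the lists around the pathway. Among the 10 members other than SPE2 it was nearest for 4, and so was replicate 3. Without that array the difference of SPE2 was -2.21, and that of SPDSYN2 was 0.66 (limma adjusted p = 0.0689).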

How the data were processed

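Total RNA from 6 seed samples was labelled and hybridised to ATH1 arrays, per the labels' protocols. The authors deposited log2 values per probe set, and the submitters' processing notes name RMA and limma, with versions and settings not given in the sources used here. Their comparison table holds log2 fold changes with limma p-values and FDRs, per the file headers. In it, 5 cells without a decimal point were taken as 1, and 6 columns of per-array values were not used. After 64 control probe sets were left out, limma 3.58.1 in R 4.3.3 (lmFit, eBayes, 2 groups, no block) was run on 22746 probe sets, adjusted by Benjamini-Hochberg (threshold 0.05), after being tested on simulated data. With 3 arrays a group, exact permutation p-values have a floor of 0.1, so none is given. The number of arrays limits precision. Members and lists were chosen with earlier results of these data known, and title words were matched to whole words after the titles were read. Named genes are all members, up to 3 called probe sets per list or else the largest, and the 6 nearest to SPE2. Names came from the platform table (13513 probe sets with 1 symbol, 503 with several, 8730 not listed), the authors' titles and RefSeq (TAIR10.1); 3 members have none. The replicate numbers did not pair the arrays: residual correlations of same-numbered arrays were -0.0895, -0.0626 and -0.135. Plots used matplotlib 3.10.9.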

Additional observations from a re-analysis of the deposited data

How the results depend on the processing

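The difference of SPE2 stayed within -2.21 to -1.72 under every alternative run, which lies within 1 SD of the mutant replicates (0.490) from -1.95, though not of the wild-type replicates (0.132). The count of 1 member other than SPE2 past the threshold was 4 after a second quantile normalization, 3 with arrays centred on their medians, 4 with cyclic loess, 2 without the dimmest 40% of probe sets, 4 with array weights, 4 at an adjusted p under 0.10, and 0 with no moderation, with the replicate block and at an adjusted p under 0.01. It was 0 to 2 with 1 array left out. The count of 12 in the lists around the pathway was 0 with no moderation, 4 with the replicate block, 0 at an adjusted p under 0.01, and 0 to 14 with 1 array left out. Over all probe sets the count of 1120 was 494 with the replicate block, 1 with no moderation, 2070 with array weights, 1784 with cyclic loess, 1701 after a second quantile normalization, 45 and 2043 at an adjusted p under 0.01 and under 0.10, and 4 to 1667 with 1 array left out, where anac089-2 replicates 1 and 3 gave the 2 lowest counts, 6 and 4. The causes were not tested. Members that missed the threshold and passed elsewhere were SPE1, SPDSYN1 and 248248_at; SPDSYN2 lost its call under 8 of 18 alternatives. The sign turned, with no call on either side, for SAMDC (0.02 with array weights, -0.08 to 0.03 with 1 array left out), AT3G25570 (0.00 and -0.14 to 0.02) and arginase (-0.03 and -0.12 to 0.32). Of 417 single-gene values at alternatives, 309 kept their sign and their side of the threshold. Same-numbered arrays were closest to each other for 0 of 6 arrays, so the block is given as an alternative and not as a paired result.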
